A study of Rattus norvegicus with 68 samples.

Results

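The genes described are those that copy the genome in S phase, followed in cells of the nasal lining of rats that inhaled formaldehyde. The list held 46 gene symbols, and 41 of them had at least 1 array probe set (a set of short probes read as 1 value) assigned to that gene alone. They were 41 of the 14217 genes measured. The 5 others, Cdc6, Cdc7, Dbf4, Gins2 and Rrm2, were not analysed here. Where a gene had several probe sets, the one with the highest mean signal over all arrays stood for it. The rule for membership is the list of symbols and uses no measured value, though the list was drawn up with earlier results of these data known.

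All animals were male F344/CrlBR rats, 8 weeks old per the labels, placed in whole-body inhalation chambers for 6 h a day on 5 days a week. The groups of 5 d and of 13 w breathed 0, 0.7, 2, 6, 10 or 15 ppm formaldehyde, and the groups of 4 w breathed 0.7, 2, 6, 10 or 15 ppm, which gave 17 groups of 4 rats and 68 arrays. At 4 w, 0 ppm arrays were not analysed here, and the exposed 0.7 ppm group served as reference. Proteases freed the cells from level II nasal tissue, which the submitters describe as mostly transitional with some respiratory epithelium.

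DNA replication starts at origins. ORC proteins, CDC6 and CDT1 load the MCM2-7 helicase on DNA before S phase, which is called licensing, and geminin blocks loading afterwards. CDC45 and the GINS complex turn the loaded helicase on, polymerase alpha and its primase lay primers, and polymerases delta and epsilon extend them. PCNA is the ring that holds polymerases on DNA, and RFC loads that ring. Many of these genes are switched on by E2F transcription factors as a cell commits to division. In a resting airway lining few cells divide, and repair after injury depends on division of its basal cells.

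The 0 ppm titles carry codes beginning with ACO that differ between 5 d and 13 w and have no stated meaning, and any effect tied to them cannot be told apart from dose. With 0.7 ppm of the same time as the reference in place of 0 ppm, between 17 and 40 of the 41 genes were called at 6, 10 and 15 ppm. The shares of all genes called with that reference are not given here. Of the 20 samples called 4 w by title, description and time tag, 19 have 5 days written as treatment duration, and the 4 w of the other fields was followed. All 7 epithelial markers checked, keratins and Epcam among them, lay above at least 92% of genes. The 4 olfactory neuron markers were also high, Omp at a mean of 12.30 on the log2 scale (9.46 to 13.65 over arrays), although per the labels the olfactory lining had been discarded. Because the cells were profiled in bulk, fewer cells of a type and less RNA per cell cannot be told apart.

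The stretches just upstream of some of these genes are shown because E2F factors are known to act at such sites. Promoter windows of RefSeq (assembly GRCr8, 250 bases before to 50 after each listed start) were available for 36 of the 41 genes. They were searched on both strands for the 4 E2F letter strings TTTGGCGC, TTTGCCGC, TTTCGCGC and TTTCCCGC. At least 1 match was found in 17 of the 36 genes (47.2%), against 651 of all 27457 genes with a window (2.37%). The letters CCAAT, read by the factor NF-Y, were in 21 of the 36 (58.3%) against 39.6% of all genes. The strings TTTGAA and TTCGAA, forms of the CHR element of mitotic genes, were in 7 of the 36 (19.4%) against 21.0%. A match is a run of letters, not a shown binding site. In the 6 upstream stretches printed here, each read 5′ to 3′ on the gene's strand and ending at the base before the start, capitals mark the E2F strings.
Mcm2: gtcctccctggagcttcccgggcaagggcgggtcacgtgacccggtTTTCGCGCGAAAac
Mcm6: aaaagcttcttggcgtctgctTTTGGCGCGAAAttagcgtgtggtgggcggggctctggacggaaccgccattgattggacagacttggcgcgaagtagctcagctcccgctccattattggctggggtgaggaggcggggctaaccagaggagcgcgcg
Gins1: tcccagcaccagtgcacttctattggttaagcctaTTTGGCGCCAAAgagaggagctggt
Tyms: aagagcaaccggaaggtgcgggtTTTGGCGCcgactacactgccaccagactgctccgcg
Uhrf1: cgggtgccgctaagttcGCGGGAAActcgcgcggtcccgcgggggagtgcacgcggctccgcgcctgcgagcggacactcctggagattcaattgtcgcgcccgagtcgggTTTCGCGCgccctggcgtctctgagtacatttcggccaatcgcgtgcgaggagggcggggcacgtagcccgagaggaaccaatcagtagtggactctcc
Pola1: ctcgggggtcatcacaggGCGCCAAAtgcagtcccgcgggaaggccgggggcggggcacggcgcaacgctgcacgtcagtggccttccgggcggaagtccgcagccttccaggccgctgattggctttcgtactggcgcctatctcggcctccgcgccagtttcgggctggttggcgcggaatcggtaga

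In GRCr8 these stretches lie at chr4:122918095-122918154 (Mcm2, minus strand), chr13:42404353-42404512 (Mcm6, minus), chr3:160184860-160184919 (Gins1, plus), chr9:120776084-120776143 (Tyms, minus), chr9:1222976-1223185 (Uhrf1, plus) and chrX:62342356-62342545 (Pola1, minus). In Mcm2, Mcm6 and Gins1 the 12 capitals hold 2 overlapping strings, 1 on each strand. The Uhrf1 stretch belongs to 1 of its 3 listed starts. Genes with and without a string stood at both ends of the responses given below. Uhrf1 and Pola1, with a string, had among the largest and the smallest differences, and so did Asf1b and Prim2, whose windows held none. These genes were picked from the ends, and whether response size went with a string was not tested.

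At 0.7 and 2 ppm no replication gene was called higher or lower in any comparison. A gene was called where limma's moderated test, adjusted by Benjamini-Hochberg over all 14217 genes, gave an adjusted p under 0.05. At 5 d, 0 of 41 were called at 0.7 ppm (0% of all genes called higher, 5 members at an unadjusted p under 0.05) and 0 at 2 ppm (0.0281% of all genes, 6 members unadjusted). At 13 w, 0 were called at 0.7 ppm (0% of all genes, 2 members unadjusted) and 0 at 2 ppm (0.00703% of all genes, 0 members unadjusted). At 4 w, 0 were called at 2 ppm against 0.7 ppm (0.0141% of all genes, 4 members unadjusted). The unadjusted counts, here and below, take both directions. The shares of all genes at an unadjusted p under 0.05 are not given, so these counts cannot be set against all genes. The 5 d animals of 2 ppm nevertheless leaned upward. There, 34 of 41 genes had a difference above 0 with a median of 0.14 on the log2 scale, where the median over all genes was 0.00. In 9 of the 41 all 4 animals lay above all 4 of 0 ppm, which held for 2.38% of all genes. Pcna had the smallest p among them, at 0.21 ± 0.07 (SE, n = 4) with a limma adjusted p = 0.594. At 4 w, 2 ppm against 0.7 ppm had 30 of 41 above 0 with a median of 0.10, and at 13 w 22 of 41 lay above 0 with a median of 0.02. Against 0 ppm, the animals of 0.7 ppm had 13 of 41 above 0 at 5 d (median -0.04) and 25 of 41 at 13 w (median 0.02). The shares of all genes on either side of 0 are not given, for these counts or for the like count in 0 ppm rats later. Whether the response to 2 ppm differed between times was not tested.

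**Figure D1:**
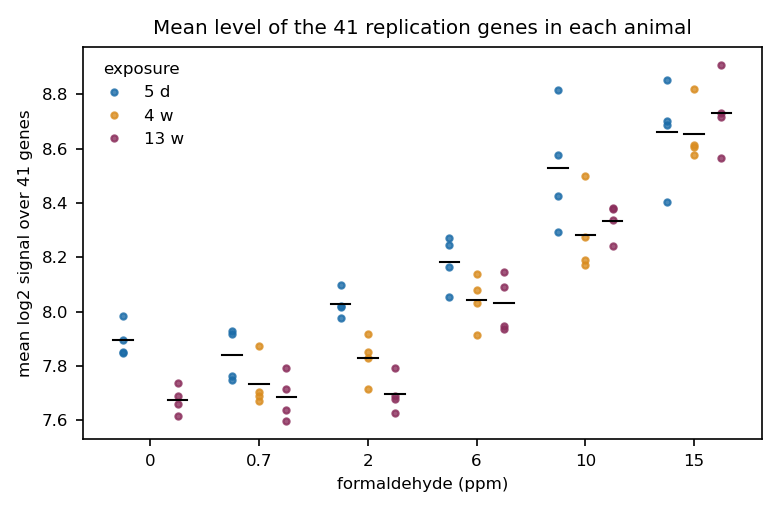
Mean log2 signal over the 41 replication genes (y axis) in each of 68 animals by formaldehyde dose in ppm (x axis) and exposure time (colour). Points are animals and bars are the means of 4, with no 0 ppm animals at 4 w. The 15 ppm animals sit between 8.40 and 8.91, all above every animal of 0, 0.7, 2 and 6 ppm.

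At 6 ppm a part of the genes rose, and at 10 and 15 ppm most did. Averaged over the 41 genes, the animals of 5 d had 7.85 to 7.98 at 0 ppm, 8.06 to 8.27 at 6 ppm, 8.29 to 8.82 at 10 ppm and 8.40 to 8.85 at 15 ppm. The 13 w animals had 7.61 to 7.74 at 0 ppm, 7.93 to 8.15 at 6 ppm, 8.24 to 8.38 at 10 ppm and 8.57 to 8.91 at 15 ppm. In both series the 6 ppm animals lay above every 0 ppm animal. At 13 w no neighbouring doses from 6 ppm upward overlapped, while at 5 d the 10 and 15 ppm animals did.

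At 6 ppm, 13 of the 41 genes were called higher at 5 d (3.54% of all genes were), 10 at 4 w (2.05%) and 18 at 13 w (7.54%), with median differences of 0.27, 0.29 and 0.30. At 10 ppm, 34 were called at 5 d (9.75% of all genes), 31 at 4 w (9.03%) and 37 at 13 w (13.8%), with medians of 0.61, 0.53 and 0.54. At 15 ppm, 38 were called at 5 d (18.3%), 37 at 4 w (21.3%) and 40 at 13 w (23.5%), with medians of 0.72, 0.90 and 0.96. The median over all genes stayed between -0.02 and 0.01 in each of these comparisons, and 0 members were called lower. The 7 genes called at 6 ppm at all 3 times were Asf1b, Cdt1, Mcm2, Mcm4, Mcm5, Pcna and Uhrf1. At 15 ppm, 37 genes were called at all 3 times. The share of all genes called higher at all 3 times is not given here. It cannot exceed the lowest single share, 2.05% at 6 ppm and 18.3% at 15 ppm. The 5 d count at 6 ppm was 8 without 6 ppm animal 300. Leaving out 0.7 ppm animal 243, 245 or 250 gave 4, 5 or 6 at 4 w, and leaving out 6 ppm animal 310 gave 3.

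**Figure D2:**
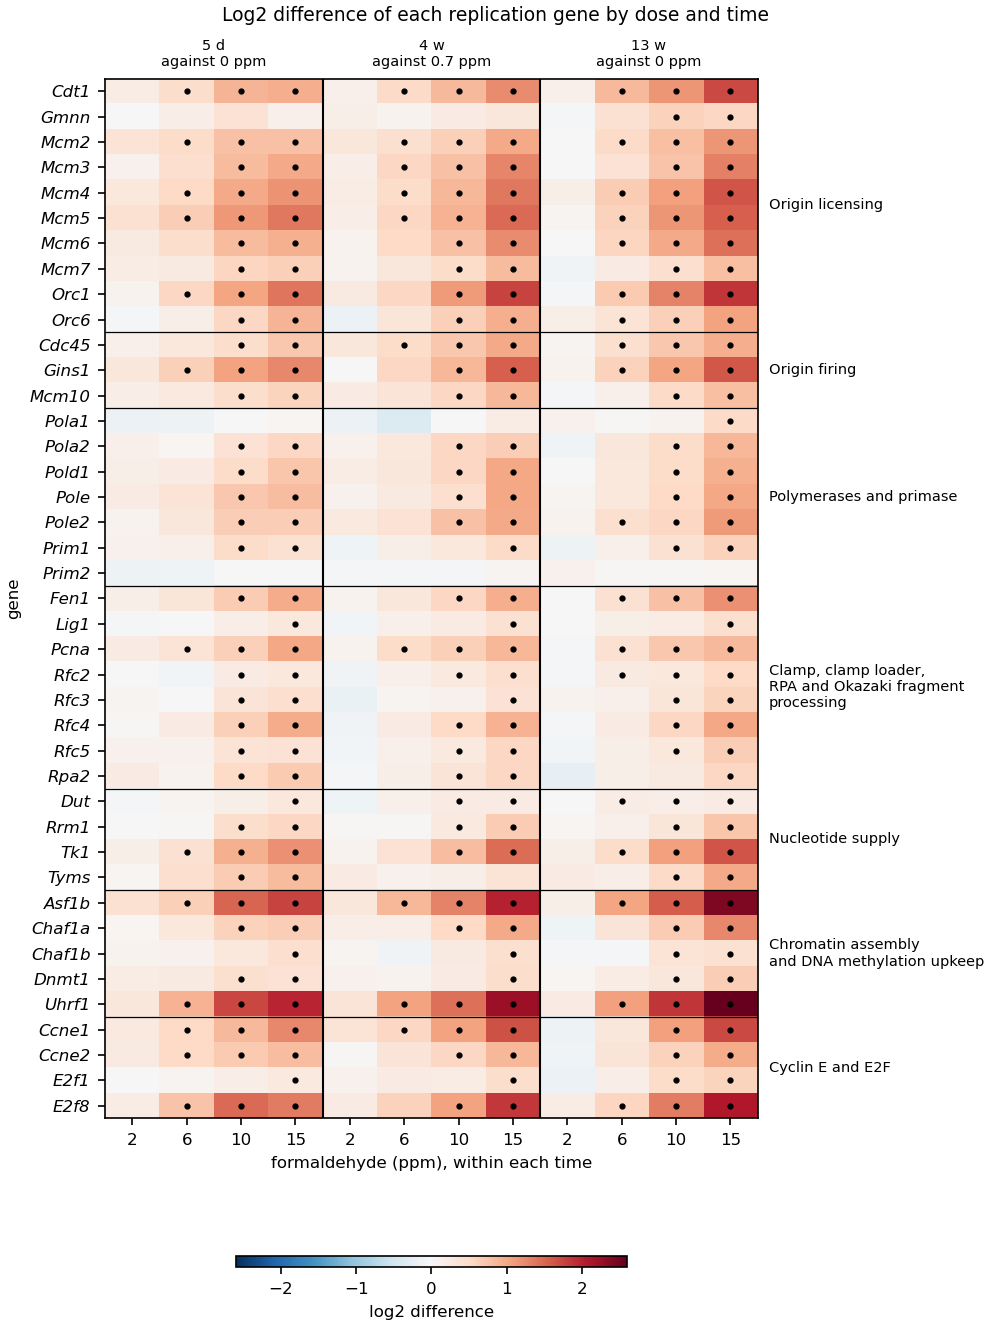
Log2 difference (colour) of each of the 41 replication genes (rows, grouped by role) at 2, 6, 10 and 15 ppm (columns), against 0 ppm at 5 d and 13 w and against 0.7 ppm at 4 w. Dots mark a limma adjusted p under 0.05. No dot stands at 2 ppm, 7 genes have dots at 6 ppm at all 3 times, and Prim2 has none.

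Among the licensing genes, all 6 MCM helicase subunits, Cdt1, Orc1 and Orc6 were called higher at 10 and 15 ppm at every time. Mcm2 in the 5 d animals read 8.61, 8.61, 8.65 and 8.65 at 0 ppm and 9.0, 9.10, 9.15 and 9.21 at 6 ppm. It read 9.04, 9.26, 9.44 and 9.78 at 15 ppm. All exposed animals of these doses lay above the controls, and the ranges of 6 and 15 ppm overlapped. At 13 w Mcm2 ran from 8.21 to 8.58 at 0 ppm, from 8.77 to 9.10 at 6 ppm and from 9.42 to 9.71 at 15 ppm, and these groups did not overlap. Its difference at 15 ppm was 0.75 ± 0.12 at 5 d (limma adjusted p = 1.23e-06) and 1.16 ± 0.12 at 13 w (adjusted p = 1.5e-11, n = 4 in each group).

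The MCM subunits, which form 1 ring of 6 proteins, did not show equal differences. At 15 ppm and 13 w they were 1.63 for Mcm4, 1.55 for Mcm5, 1.44 for Mcm6, 1.30 for Mcm3, 1.16 for Mcm2 and 0.79 for Mcm7, on the log2 scale. Mcm7 was also lowest of the 6 at 5 d (0.62) and 4 w (0.83). Each subunit was read by its own probe set, whose response to a change in RNA can differ, and differences between subunits were not tested. Orc1, the subunit of the origin complex whose level varies with the cell cycle, rose by 1.40 ± 0.17, 1.76 ± 0.17 and 1.86 ± 0.17 at 15 ppm after 5 d, 4 w and 13 w. Its mean signal of 4.59 was the dimmest of the group.

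Gmnn encodes geminin, the licensing inhibitor. In the 5 d animals it read 9.61, 9.71, 9.92 and 10.01 at 0 ppm and 9.75, 9.84, 10.10 and 10.13 at 15 ppm, and the groups overlapped. At 13 w it read 9.68, 9.77, 9.95 and 9.97 at 0 ppm and 10.26, 10.26, 10.42 and 10.56 at 15 ppm, with no overlap. The difference was 0.14 ± 0.17 at 5 d (limma adjusted p = 0.562) and 0.53 ± 0.17 at 13 w (adjusted p = 0.00728). At 13 w it was 0.40 ± 0.17 at 6 ppm (adjusted p = 0.113) and 0.59 ± 0.17 at 10 ppm (adjusted p = 0.00562). Cdt1, the loader that geminin binds, rose by 0.95, 1.23 and 1.72 at 15 ppm after 5 d, 4 w and 13 w.

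All 3 measured firing genes, Cdc45, Gins1 and Mcm10, were called at 10 and 15 ppm at every time. Cdc45, part of the active helicase, read 7.82 to 8.00 at 0 ppm and 8.50 to 8.73 at 15 ppm after 5 d. At 13 w it read 7.53 to 7.74 at 0 ppm, 7.98 to 8.09 at 6 ppm, 8.22 to 8.45 at 10 ppm and 8.44 to 8.68 at 15 ppm, so only the top 2 doses overlapped. Gins1, a GINS subunit, rose by 1.25, 1.55 and 1.60 at 15 ppm after 5 d, 4 w and 13 w.

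The polymerase and primase genes gave the smallest responses of the group as well as ordinary ones. Of 7, 5 were called at 15 ppm after 5 d and 4 w and 6 after 13 w, with medians of 0.54, 0.65 and 0.86. Pole2, a small subunit of polymerase epsilon, read 6.86, 6.92, 7.04 and 7.15 at 0 ppm and 7.24, 7.54, 7.73 and 8.00 at 15 ppm after 5 d. At 13 w it read 6.58, 6.67, 6.75 and 6.83 at 0 ppm against 7.67, 7.86, 7.86 and 7.86 at 15 ppm, and in neither series did the groups overlap. Pold1, the catalytic subunit of polymerase delta, rose by 0.72, 1.00 and 0.93 at 15 ppm, and Pole by 0.80, 1.01 and 1.00.

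Pola1, the catalytic subunit of the priming polymerase, read 6.79, 6.98, 7.02 and 7.07 at 0 ppm and 6.86, 7.03, 7.08 and 7.11 at 15 ppm after 5 d. These ranges overlapped almost fully, with a difference of 0.05 ± 0.11 (limma adjusted p = 0.751). At 13 w the 0 ppm animals read 6.55, 6.61, 6.80 and 6.83 and the 15 ppm animals 6.96, 7.20, 7.22 and 7.37, a rise of 0.49 ± 0.11 (adjusted p = 0.000204). Prim2, the large primase subunit, was called in no comparison with a reference, with 0.01 ± 0.11, 0.08 ± 0.11 and 0.05 ± 0.11 at 15 ppm after 5 d, 4 w and 13 w. Pola2 and Prim1, the other two subunits of the same complex, were called at 15 ppm at every time, by 0.54, 0.65 and 0.86 for Pola2 and 0.40, 0.50 and 0.60 for Prim1.

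**Figure D3:**
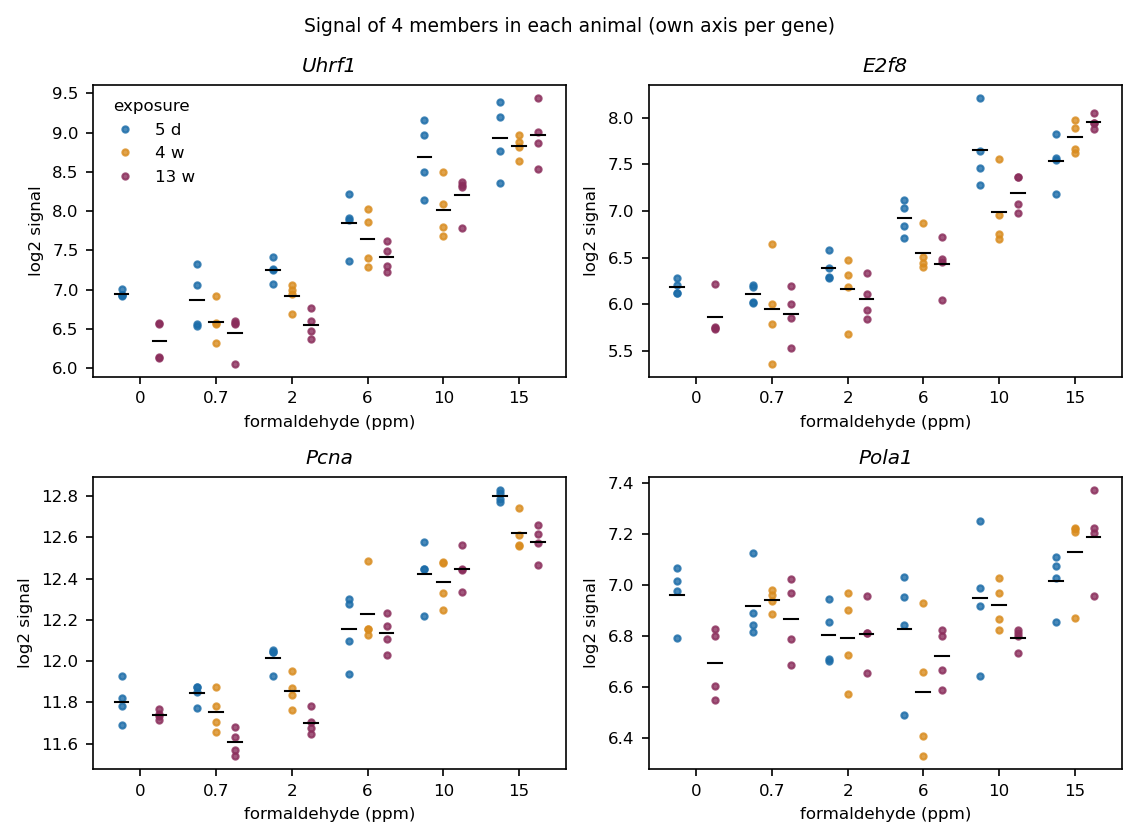
Log2 signal (y axis, own scale for each gene) of Uhrf1, E2f8, Pcna and Pola1 in each animal by formaldehyde dose in ppm (x axis) and exposure time (colour). Points are animals and bars are means of 4. Uhrf1, E2f8 and Pcna climb from 6 ppm, and Pola1 at 5 d stays between 6.49 and 7.25 at every dose.

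The clamp, its loader and the genes that finish lagging-strand fragments were called in 8 of 8 cases at 15 ppm at every time, with medians of 0.56, 0.54 and 0.61. Pcna itself, after 5 d, read 11.69, 11.78, 11.82 and 11.93 at 0 ppm, 11.94, 12.10, 12.28 and 12.30 at 6 ppm, 12.22, 12.44, 12.45 and 12.57 at 10 ppm and 12.77, 12.79, 12.81 and 12.83 at 15 ppm. The 15 ppm animals stood clear of all others of that time. After 13 w it read 11.71 to 11.77 at 0 ppm, 12.33 to 12.56 at 10 ppm and 12.46 to 12.66 at 15 ppm, where the upper 2 groups overlapped. The difference at 15 ppm was 1.00 ± 0.07 at 5 d (1.99-fold, limma adjusted p = 4.67e-17), 0.87 ± 0.07 at 4 w and 0.84 ± 0.07 at 13 w.

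Fen1, the flap nuclease, read 7.49 to 7.87 at 0 ppm and 8.49 to 8.83 at 15 ppm after 5 d, and 7.43 to 7.53 against 8.60 to 8.79 after 13 w. The groups were separate at both times, with differences of 0.96 ± 0.10 and 1.19 ± 0.10. The clamp loader genes moved unequally. Rfc4 rose by 0.96, 0.90 and 1.00 at 15 ppm after 5 d, 4 w and 13 w, while Rfc2, Rfc3 and Rfc5 rose by 0.27 to 0.64. Lig1, the ligase that seals fragments, was called at 15 ppm alone, by 0.28, 0.40 and 0.41.

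Of the nucleotide supply genes, Tk1, which salvages thymidine, changed most. It read 7.51, 7.67, 7.67 and 7.73 at 0 ppm and 8.51, 8.75, 8.92 and 9.13 at 15 ppm after 5 d. After 13 w the values were 7.05, 7.29, 7.33 and 7.35 at 0 ppm and 8.62, 8.81, 8.85 and 9.24 at 15 ppm. Neither pair overlapped, and the differences were 1.18 ± 0.12 and 1.63 ± 0.12 (2.27-fold and 3.08-fold). Tyms, which makes thymidylate anew, rose by 0.83 ± 0.18 at 5 d and 0.99 ± 0.18 at 13 w but had 0.35 ± 0.18 at 4 w (limma adjusted p = 0.139). Rrm1, a subunit of ribonucleotide reductase, rose by 0.55, 0.65 and 0.72, and Dut, which clears dUTP, by 0.28, 0.21 and 0.22.

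The chromatin genes held the largest differences of the group. Uhrf1, which brings the maintenance methyltransferase to newly copied DNA, ranked first of the 41 at 6, 10 and 15 ppm at all 3 times. After 5 d it read 6.92, 6.93, 6.93 and 7.01 at 0 ppm, 7.37, 7.89, 7.91 and 8.22 at 6 ppm and 8.36, 8.76, 9.20 and 9.39 at 15 ppm. After 13 w it read 6.13, 6.14, 6.56 and 6.58 at 0 ppm, 7.23, 7.30, 7.50 and 7.62 at 6 ppm and 8.53, 8.87, 9.01 and 9.44 at 15 ppm. No animal of 6 or 15 ppm reached down to its controls. The difference at 15 ppm was 1.98 ± 0.21 at 5 d (3.94-fold, limma adjusted p = 1.53e-11), 2.23 ± 0.21 at 4 w (4.68-fold) and 2.61 ± 0.21 at 13 w (6.12-fold, adjusted p = 1.07e-15).

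Dnmt1, the methyltransferase that UHRF1 recruits, changed far less by its own probe set. It read 8.86 to 9.06 at 0 ppm and 9.23 to 9.38 at 15 ppm after 5 d, and 8.65 to 8.84 against 9.25 to 9.47 after 13 w. The groups were separate, with differences of 0.37 ± 0.08 and 0.65 ± 0.08. Among histone chaperones, Asf1b rose by 1.75 ± 0.16, 2.00 ± 0.16 and 2.43 ± 0.16 at 15 ppm after 5 d, 4 w and 13 w. Chaf1a, the large subunit of chromatin assembly factor 1, rose by 0.65, 0.98 and 1.26, and its partner Chaf1b by 0.43, 0.42 and 0.39.

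Cyclin E drives cells into S phase. Ccne1 read 6.42, 6.56, 6.59 and 6.79 at 0 ppm and 7.65, 7.79, 7.95 and 7.95 at 15 ppm after 5 d, and 6.25, 6.25, 6.48 and 6.78 against 7.66, 8.11, 8.37 and 8.45 after 13 w. The rise was 1.25 ± 0.14 and 1.71 ± 0.14. Ccne2 read 6.67 to 7.17 at 0 ppm and 7.39 to 7.87 at 15 ppm after 5 d, and 6.53 to 7.16 against 7.64 to 8.27 after 13 w. Neither cyclin's groups overlapped.

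The 2 E2F genes differed in size of response. E2f1, an activator, read 7.13, 7.21, 7.22 and 7.37 at 0 ppm and 7.34, 7.40, 7.58 and 7.63 at 15 ppm after 5 d, a difference of 0.25 with overlapping groups. After 13 w it read 6.67, 6.74, 6.98 and 7.19 at 0 ppm and 7.27, 7.52, 7.56 and 7.59 at 15 ppm, without overlap and with a difference of 0.59. E2f8, an atypical member that represses E2F targets, read 6.12, 6.12, 6.21 and 6.29 at 0 ppm after 5 d, 7.28, 7.46, 7.64 and 8.21 at 10 ppm and 7.19, 7.55, 7.57 and 7.83 at 15 ppm. After 13 w it read 5.74, 5.74, 5.76 and 6.22 at 0 ppm, 6.98, 7.08, 7.36 and 7.37 at 10 ppm and 7.88, 7.94, 7.94 and 8.05 at 15 ppm. The top 2 doses overlapped at 5 d and were separate at 13 w.

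The members kept nearly the same order across times. Across the 41 genes, the differences at 15 ppm correlated at a Spearman rho of 0.91 between 5 d and 13 w, 0.90 between 5 d and 4 w and 0.94 between 4 w and 13 w. These comparisons share no arrays but share probe sets, and genes are not independent replicates. At 10 ppm the same values were 0.91, 0.87 and 0.91. Ranked by difference and averaged over 6, 10 and 15 ppm at the 3 times, Uhrf1, Asf1b, E2f8 and Orc1 led and Prim2 and Pola1 came last.

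The step from 10 to 15 ppm was called for few genes at 5 d and for more later. At 5 d, 5 of 41 genes were higher at 15 than at 10 ppm (Orc6, Pcna, Rfc4, Fen1 and Ccne1, where 7.18% of all genes were), with a median of 0.12. At 4 w, 21 were called (5.11% of all genes, median 0.33), and at 13 w 27 (8.55%, median 0.41). Asf1b had the largest step at 13 w, 0.86 ± 0.16, against 0.23 ± 0.16 at 5 d. For E2f8 the step was -0.12 ± 0.19 at 5 d and 0.76 ± 0.19 at 13 w, and for Pcna it was 0.38 ± 0.07 at 5 d and 0.13 ± 0.07 at 13 w. Over this step at 5 d 9 of 12 leukocyte markers were also called higher, with a median of 1.73, against 0 of 12 at 13 w, and their part in the step was not tested. The 5 d count was 2, 3 or 8 without 10 ppm animal 324, 328 or 329, and 3, 1 or 2 without 15 ppm animal 354, 356 or 358. Leaving out 10 ppm animal 331 or 336 gave 4 or 10 at 4 w, leaving out 15 ppm animal 369 gave 8, and the 13 w count was 14 without 15 ppm animal 378.

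The difference between these steps was itself tested, in contrasts chosen after seeing the data. From 5 d to 13 w the step grew for 5 genes (6.53% of all genes were called higher), which were E2f8 by 0.87 ± 0.26, Pole2 by 0.57 ± 0.16, Chaf1a by 0.56 ± 0.18, Dnmt1 by 0.40 ± 0.12 and Rfc5 by 0.33 ± 0.11. From 5 d to 4 w it grew for E2f8 alone, by 0.91 ± 0.26 (4.13% of all genes). The first count was 10 or 0 without 5 d animal 324 or 329 of 10 ppm, and 8 or 1 without 5 d animal 356 or 359 of 15 ppm. It was 3 or 2 without 13 w animal 341 or 346 of 10 ppm and 2 without animal 378 of 15 ppm. The second count was 0 without 10 ppm animal 329, 331 or 336 or 15 ppm animal 359 or 369, 3 without 10 ppm animal 333, and 2 without 10 ppm animal 324 or 15 ppm animal 356.

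**Figure D4:**
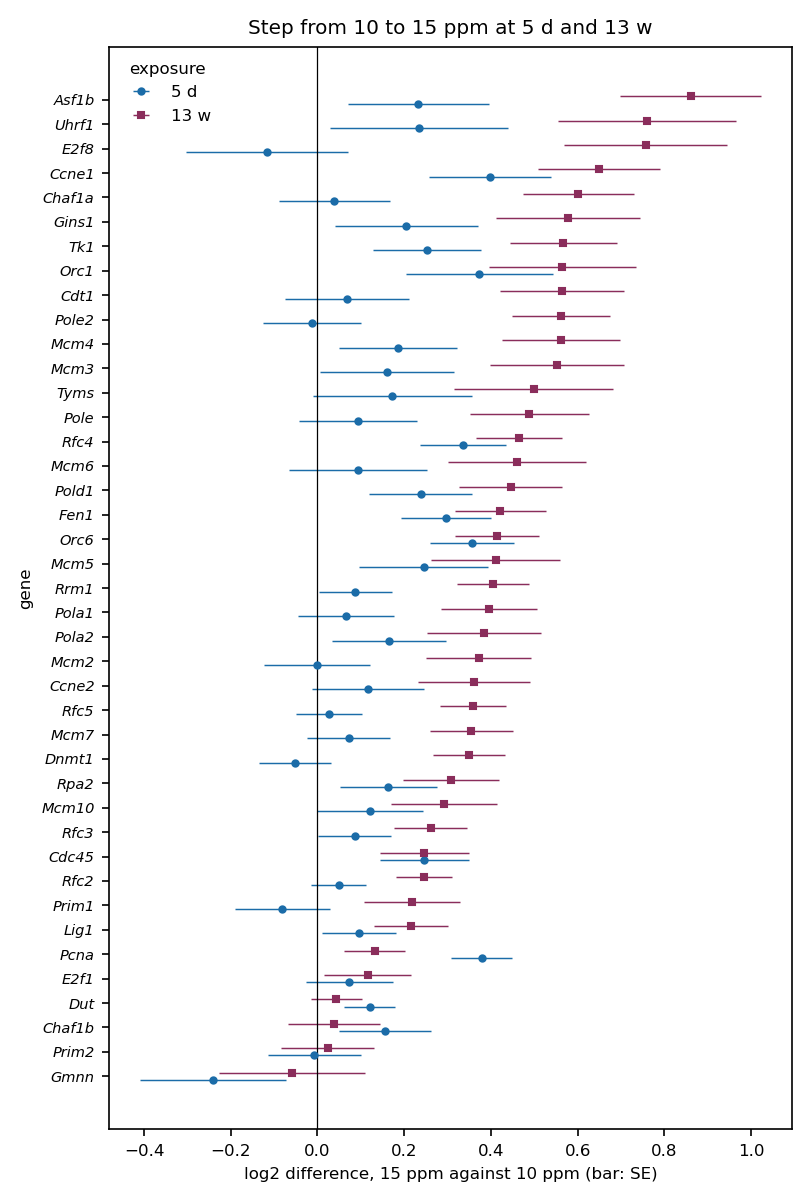
Log2 difference between 15 and 10 ppm (x axis, bars are ± 1 SE, 4 animals per group) for each of the 41 genes (rows, ordered by the 13 w value) at 5 d and 13 w. Asf1b, Uhrf1 and E2f8 lead at 13 w with 0.86, 0.76 and 0.76, where E2f8 at 5 d has -0.12, and Pcna has the larger step at 5 d.

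From 6 to 10 ppm, 11 genes were called at 5 d (0.914% of all genes), 0 at 4 w (0.577%, 19 members at an unadjusted p under 0.05 by limma) and 10 at 13 w (2.07%), with medians of 0.34, 0.22 and 0.29. The 5 d count was 20, 6 or 0 without 10 ppm animal 324, 328 or 329 and 1, 2 or 7 without 6 ppm animal 295, 299 or 300. It was 0 with the beta-actin difference described below as a covariate. Without 10 ppm animal 331 the 4 w count was 2, and without 6 ppm animal 307 it was 1. The 13 w count was 3 or 1 without 10 ppm animal 346 or 349, and 3 without 6 ppm animal 319 or 320.

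Responses measured against 0 ppm were also compared between 5 d and 13 w. At 6 ppm 0 members differed (0% of all genes called higher, 1 member at an unadjusted p under 0.05 by limma) and at 10 ppm 0 (0.00703%, 1 member unadjusted). At 15 ppm the response was larger after 13 w for 6 members (9.21% of all genes). They were Cdt1 by 0.77 ± 0.20, E2f8 by 0.74 ± 0.26, Asf1b by 0.68 ± 0.23, Chaf1a by 0.61 ± 0.18, Pole2 by 0.47 ± 0.16 and Pola1 by 0.44 ± 0.16, with limma adjusted p from 0.00524 to 0.0485. Beside that share of all genes, 6 of 41 is not many. With 0.7 ppm as the reference, 0 members differed between 4 w and 5 d (1.58% of all genes, 4 members unadjusted by limma) or between 13 w and 4 w (0.0141%, 1 member unadjusted). The count of 6 was 3 without 0 ppm animal 208 or 226 and 2 without animal 207. It was 3 without 15 ppm animal 354, 358, 377 or 379, 2 without animal 378, 1 without animal 359 and 11 without animal 356.

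The 0 ppm rats themselves had lower values after 13 w than after 5 d. Of 41 genes 37 lay below 0 in that comparison, with a median of -0.21 (all genes: -0.02). In 15 genes all 4 animals of 13 w lay below all 4 of 5 d, which held for 7.46% of all genes. Cdt1 fell by 0.57 ± 0.14 (from 7.47 to 6.91), Rfc3 by 0.31 ± 0.08 and Rfc2 by 0.28 ± 0.06, and these 3 were the members called lower (1.62% of all genes), with limma adjusted p of 0.0213, 0.0342 and 0.011. The count was 1 without 13 w animal 225, 226 or 230 or 5 d animal 208, and 0 without 5 d animal 207. The animals of 13 w were older as well as longer in the study, and the title codes of the 2 control groups differ, so these cannot be told apart.

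The 15 ppm animals of the 2 times were compared in a contrast chosen after seeing the data. Those of 13 w differed from those of 5 d by a median of 0.05 over the 41 genes, in which rises and falls offset each other. Pcna fell by 0.22 ± 0.07 (from 12.80 to 12.58) and Dut by 0.16 ± 0.06, and these 2 were called lower, where 13.1% of all genes were. For E2f8 the 0 ppm mean was 6.19 at 5 d and 5.86 at 13 w, and the 15 ppm mean was 7.53 and 7.95. The count of 2 was 1 without 15 ppm animal 354, 358 or 379 and 5 without animal 356.

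Other measures moved with the 5 d groups. The mean of 12 leukocyte markers, among them Ptprc, S100a8 and Lyz2, was 7.75 to 8.44 at 0 ppm and 9.43 to 10.03 at 15 ppm after 5 d, with 10 of the 12 called higher. At 13 w it was 7.51 to 8.26 at 0 ppm and 7.53 to 8.18 at 15 ppm, with 0 called higher and 4 lower. At 4 w the leukocyte mean was 7.59 to 7.83 at 0.7 ppm and 8.29 to 8.78 at 15 ppm, with 7 of 12 called higher and 1 lower. At 6 ppm after 5 d 0 of 12 were called higher and 2 lower. The leukocyte part in the members' values was not tested at any time. Other types the digest could hold moved too. All 4 ciliated cell markers were called lower at 15 ppm after 13 w (mean 9.16 against 10.00 at 0 ppm), and 3 of 6 fibroblast markers (10.54 against 11.84). The mean of 6 basal and squamous markers, keratins 5 and 14 among them, was 12.57 against 11.92 at 15 and 0 ppm after 5 d and 13.06 against 11.74 after 13 w. Of these, 4 were called higher and 1 lower after 5 d, and 6 higher and 0 lower after 13 w. Of 7 epithelial markers, 3 were called higher and 2 lower after 5 d, and 4 and 2 after 13 w. Of 7 secretory and goblet cell markers, 0 were called higher and 1 lower at 15 ppm after 5 d, and 0 and 4 after 13 w. The shares of all genes called higher and lower in these comparisons are given below, with the further replication genes. The part of these cell types in the results was not tested.

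RNA quality differed between groups as well. The RNA integrity number, a score of intactness, had a mean of 7.68 at 0 ppm and 8.33 at 15 ppm after 5 d, and 7.57 and 8.90 after 13 w. The 3′ beta-actin control probe set exceeded the 5′ one by 1.71 at 0 ppm, 2.61 at 6 ppm, 2.05 at 10 ppm and 2.47 at 15 ppm after 5 d, and by 1.58 to 1.89 at these doses after 13 w. Their part in the results was not tested beyond the fits with each as a covariate, in which the counts at 6, 10 and 15 ppm against a reference stayed within 1.5 times of those given.

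Several genes had probe sets that disagreed, so their values rest on the brighter one. For Ccne2 the brighter set rose by 0.80, 0.86 and 0.96 at 15 ppm after 5 d, 4 w and 13 w, while the other, of mean 5.50, gave -0.11, -0.43 and -0.02. At 4 w this dimmer Ccne2 set was itself called lower, with a limma adjusted p = 0.00123 in a fit over probe sets. For Dut the second set gave -0.16, -0.31 and 0.05, and the mean of both sets turned the 4 w difference to -0.05. The second Lig1 set gave 0.23, -0.17 and 0.11, and the second Gmnn set, of mean 5.99, gave 0.14, 0.11 and 0.00. Of 4 Cdc45 sets, 3 rose by 0.67 to 1.06 and the dimmest gave 0.12 to 0.29, and of 3 Tk1 sets, 2 rose by 1.18 to 1.63 and the third gave 0.28 to 0.38. All sets of Orc6 and Rfc5 were called at 15 ppm at every time.

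Further genes of replication and of the entry into S phase, a list of 61 with 55 measured, rose in part. At 15 ppm 30 were called higher and 4 lower after 5 d, 35 and 4 after 4 w, and 39 and 4 after 13 w, with medians of 0.30, 0.51 and 0.65. Of all genes 18.3%, 21.3% and 23.5% were called higher in these comparisons and 19.5%, 16.1% and 20.6% lower. At 6 ppm after 5 d 13 were higher and 2 lower, against 3.54% and 5.3% of all genes. Cdkn1a, whose product p21 blocks cyclin-dependent kinases and binds PCNA, also rose, by 1.08 at 6 ppm and 1.97 at 15 ppm after 5 d and by 2.19 at 15 ppm after 13 w. Ccna2, cyclin A of S and G2 phase, rose by 2.17 at 15 ppm after 5 d and 3.08 after 13 w. Rbl2, the p130 pocket protein of resting cells, had the smallest adjusted p among lower genes of the list, at -0.48, -0.64 and -0.94 at 15 ppm after 5 d, 4 w and 13 w. Orc4, an origin complex subunit, fell by 0.24, 0.41 and 0.27, where the members Orc1 and Orc6 rose.

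Mitosis genes, a list of 26 with 23 measured, had larger medians than the replication genes. They were 0.45 at 6 ppm, 1.06 at 10 ppm and 1.29 at 15 ppm after 5 d, and 0.84, 1.36 and 1.95 after 13 w, with 17, 22 and 22 and then 20, 22 and 22 of 23 called higher. The shares of all genes called higher in these comparisons are those given above for the replication genes. Cdk1, the mitotic kinase, rose by 1.44 and 2.00 at 15 ppm after 5 d and 13 w. Aurkb was the exception, at -0.62 and -0.89. In the 0 ppm rats 14 of the 23 were lower after 13 w than after 5 d, with a median of -0.57.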

How the data were processed

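RNA of each animal was hybridised to 1 single-colour Rat230_2 array. Per the submitters' processing notes, the authors used GCOS 1.0 and RMA, and the log2 values they deposited were used as they are. RMA shrinks differences of dim probe sets. Of 31099 probe sets, 20832 named 1 gene, 436 several and 9831 none. The first kind was used, less the 6 array controls (of 57 in all) that name 1 gene. A model with a mean for each group was fitted to the 68 arrays with limma 3.58.1 (R 4.3.3), so SEs rest on a spread pooled over 17 groups with 51 residual degrees of freedom, and 4 animals per group limit the precision. Benjamini-Hochberg adjustment ran over all genes of a comparison. The fit was tested on simulated data. Members, roles and other lists were chosen with earlier results of these data known. Per-animal values were given for 1 to 3 set members of each role, and other members were named by largest or smallest difference, by calls, or where probe sets disagreed. From other lists the genes of smallest adjusted p were named. Alternatives were other scalings, filters, probe set summaries, weights, priors, RNA quality covariates, references and leaving out each animal. Animals were independent and unpaired.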

Additional observations from a re-analysis of the deposited data

Results flagged for a closer look

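Among 255 sets of 4 animals (the 14 members shown animal by animal and the mean over all 41, in 17 groups), 15 held an animal that stood apart by Dixon's 95% criterion, which chance gives in about 1 in 20. The mean over members was 7.87 in 0.7 ppm animal 242 at 4 w, where the others had 7.67 to 7.70, and 8.82 in 15 ppm animal 369 at 4 w, where they had 8.58 to 8.61. Pole2 was 8.03 in 10 ppm animal 329 at 5 d, 8.09 in 15 ppm animal 369 at 4 w and 7.67 in 15 ppm animal 378 at 13 w. Uhrf1 was 7.01 in 0 ppm animal 210 at 5 d, 6.06 in 0.7 ppm animal 258 at 13 w and 7.79 in 10 ppm animal 341 at 13 w. Pcna was 11.93 in 2 ppm animal 266 at 5 d and 12.49 in 6 ppm animal 310 at 4 w. Single cases were Gmnn at 9.46 in 2 ppm animal 290 at 13 w, Cdc45 at 8.48 in 10 ppm animal 333 at 4 w and Pola1 at 6.87 in 15 ppm animal 365 at 4 w. At 0 ppm and 13 w, Ccne2 was 6.53 in animal 226 and E2f8 was 6.22 in animal 229.

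Differences between times were also picked out. The 15 ppm response against 0 ppm differed between 13 w and 5 d for 6 of 41 members, where 9.21% of all genes were called higher. The difference between 15 and 10 ppm changed from 5 d to 4 w for 1 of 41 members (4.13% of all genes called higher), a share below that of all genes, and from 5 d to 13 w for 5 of 41 (6.53% of all genes).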

How the results depend on the processing

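Counts of called members at 10 and 15 ppm against a reference stayed within 1.5 times of those reported under all alternatives run. No paired analysis was possible because animal numbers are unique to each group. Leaving out 1 animal at a time gave 8 to 15 (6 ppm at 5 d), 3 to 13 (6 ppm at 4 w), 0 to 20 (10 against 6 ppm at 5 d), 0 to 2 (4 w), 1 to 11 (13 w), 1 to 8 (15 against 10 ppm at 5 d), 4 to 27 (4 w), 14 to 31 (13 w), 1 to 11 (15 ppm response, 13 w minus 5 d), 0 to 3 (0 ppm, 13 w against 5 d), 1 to 5 (15 ppm, 13 w against 5 d), 0 to 3 (the 15 against 10 ppm step, 4 w minus 5 d) and 0 to 10 (13 w minus 5 d).

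The integrity number as a covariate gave 2 for 10 against 6 ppm at 5 d, 3 for 15 against 10 ppm at 5 d, 2 for the 15 ppm response and 2 for the step at 4 w. Leaving out arrays without that number gave 2, 3, 2 and 3, with 1 for 0 ppm over time and 8 for the step at 13 w. The beta-actin covariate gave 0, 8 and 1 for the first 3, 1 for the 15 ppm response of 4 w minus 5 d, 5 for 0 ppm over time and 5 for 15 ppm over time. Array weights gave 22 for 6 ppm at 5 d, 4 for 10 against 6 ppm at 4 w, 1 for the 6 ppm response, 10 for the 15 ppm response, 11 for 0 ppm over time, 5 for 15 ppm over time and 0 for the step at 4 w. Cyclic loess gave 16 for 6 ppm at 4 w, 3 for the 15 ppm response, 4 for 15 ppm over time and 3 for the step at 13 w. Centring gave 6 for 6 ppm at 4 w and 3 for 15 against 10 ppm at 5 d. The mean of all probe sets gave 1 for 10 against 6 ppm at 4 w and 1 for 15 ppm over time, and reversed Dut at 15 ppm and 4 w to -0.0465. The filter on dim genes gave 5 for 0 ppm over time. Fits on the times compared gave 3 for 6 ppm at 4 w, 1 for 10 against 6 ppm at 5 d and 10 for 15 against 10 ppm at 4 w. The cause was not tested, except that these last fits hold fewer arrays. Dim signals limit Orc1 and the second probe sets.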
